A study of Mus musculus with 6 samples.

Results

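Complement is a cascade of plasma and membrane proteins that marks cells, debris and microbes for removal. The classical pathway starts when C1q binds a surface, the alternative pathway amplifies deposited C3b with the help of factor B, and both meet at C3. Cleavage of C3 and of C5 releases small peptides that act on receptors of myeloid cells. The liver makes most circulating complement, while tissue macrophages are a main source of C1q and stromal cells also make C3 and other early components.

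The genes described here are 9 components, receptors and regulators of complement, taken by symbol from a deposited table of 22298 mouse genes, and all 9 were found. They are the 3 chains of C1q (C1qa, C1qb and C1qc), the component gene C4b, the central component C3, factor B (Cfb), the receptors C3ar1 and C5ar1, and the C1 inhibitor (Serping1). RNA came from 3 heart samples after TAC surgery and 3 after sham surgery, all from wild-type female mice of 18 months. TAC usually stands for transverse aortic constriction, which puts a pressure load on the left ventricle, and no label states the time after surgery. The labels list separate heart samples but do not say that each came from its own animal, so the spread behind each p-value is that between these samples, which may be technical in part.

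The libraries held between 19747265 and 27549838 estimated counts. Along the first principal component of log2 CPM (54.6% of the variance), TAC replicate 1 stood at -0.65, between TAC replicates 2 and 3 (-48.9 and -53.5) and the sham libraries (31.4 to 37.3). Results are therefore also given without it, a choice that came from these same data. Leaving out the TAC library nearest to sham widens the gap between groups. Over all genes, 153 were called higher with it and 1837 without it. Calls made without it therefore give no independent support. Cardiomyocyte markers were abundant in all libraries (summed FPKM of 15460 to 19440 in TAC and 18340 to 18970 in sham). Hepatocyte markers were near 0, with a summed FPKM of 0.42 to 0.92 in TAC and 0.19 to 0.29 in sham and Fga and Fgb at 0 in every library.

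Every one of the 9 genes had a positive log2 fold change, TAC over sham, but none passed the test at an adjusted p under 0.05. The test was edgeR's quasi-likelihood test with Benjamini-Hochberg adjustment over 13708 genes, and it called 1.66% of them in either direction and 1.12% higher in TAC. At an unadjusted p under 0.05, 7 of the 9 were higher in TAC, against 16.3% of all genes tested. At an adjusted p under 0.10, 6 of the 9 were higher in TAC, against 8.25% of all genes. DESeq2's Wald test on the same genes called 7 of the 9 higher, where it called 7.83% of all genes. In 6 of the 9 (C1qa, C1qb, C1qc, C4b, Cfb and C5ar1) every TAC library lay above every sham library, as in 18.4% of all genes tested. The median log2 fold change of the 9 was 0.89, beside 0.03 over all genes tested. These genes were chosen with earlier results of the same data known, so their counts and median describe them and give no independent support.

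**Figure D1:**
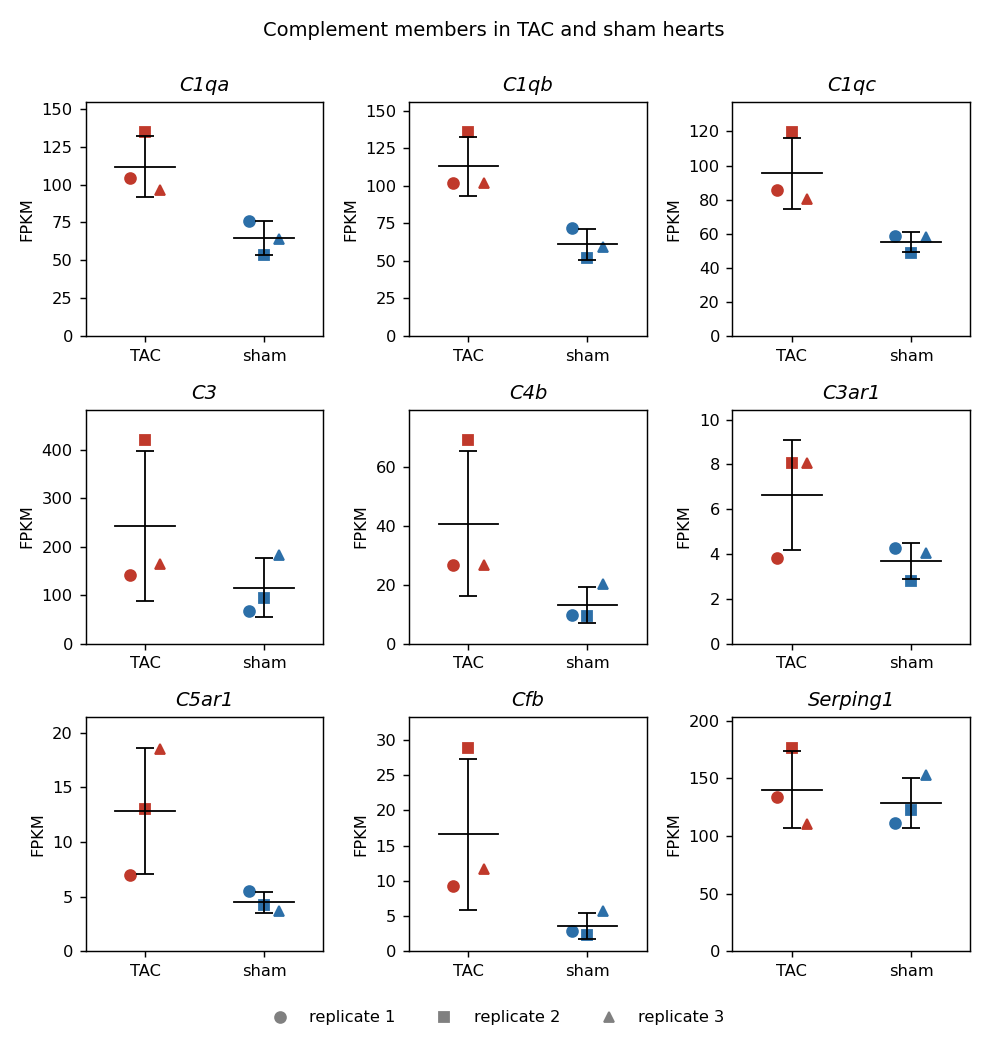
FPKM of the 9 complement genes in each library, with TAC left of sham in each panel; points are libraries, with a symbol for each replicate number, the long line is the mean and the bar 1 SD (n = 3 each). The 3 C1q chains, C4b, C5ar1 and Cfb show no overlap between groups, while C3, C3ar1 and Serping1 overlap.

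C1q, the recognition molecule of the classical pathway, was among the more abundant complement transcripts, and its 3 chains had nearly equal fold changes. The genes lie side by side on the minus strand of chromosome 4 within 18675 bases (GRCm38): C1qb (ENSMUSG00000036905) at 136880129 to 136886187, C1qc (ENSMUSG00000036896) at 136889804 to 136893065, and C1qa (ENSMUSG00000036887) at 136895917 to 136898803. No annotated gene overlaps them, and their deposited counts were whole in all libraries. The reference table of promoters, built on RefSeq genes in GRCm38.p6, held windows for 5 of the 9 genes, from 250 bases before to 50 bases after the start site. Those of C1qb and C1qc, 2 chains with nearly equal fold changes, and of C3, which varied far more between libraries, are shown 5′ to 3′ on the gene's strand, with the motif matches described after them in capitals.
C1qb promoter: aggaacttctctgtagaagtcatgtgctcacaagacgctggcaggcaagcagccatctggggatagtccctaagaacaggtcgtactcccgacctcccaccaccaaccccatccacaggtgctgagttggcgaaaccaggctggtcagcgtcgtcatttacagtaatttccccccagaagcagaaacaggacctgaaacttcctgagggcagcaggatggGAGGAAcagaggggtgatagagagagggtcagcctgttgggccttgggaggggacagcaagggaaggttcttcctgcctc
C1qc promoter: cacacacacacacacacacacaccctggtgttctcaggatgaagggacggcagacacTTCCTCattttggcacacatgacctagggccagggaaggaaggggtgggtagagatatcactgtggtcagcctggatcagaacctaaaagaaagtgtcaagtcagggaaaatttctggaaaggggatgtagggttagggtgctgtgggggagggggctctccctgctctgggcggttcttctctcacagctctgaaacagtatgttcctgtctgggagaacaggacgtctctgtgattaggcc
C3 promoter: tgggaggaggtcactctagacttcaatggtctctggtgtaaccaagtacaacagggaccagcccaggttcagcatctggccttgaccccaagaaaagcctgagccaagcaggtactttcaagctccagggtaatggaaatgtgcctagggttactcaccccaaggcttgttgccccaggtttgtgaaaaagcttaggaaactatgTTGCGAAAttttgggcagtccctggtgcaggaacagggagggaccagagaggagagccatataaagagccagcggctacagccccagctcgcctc
The windows span chr4:136886151-136886450 for C1qb, chr4:136892865-136893164 for C1qc and chr17:57228087-57228386 for C3, all on the minus strand. The RefSeq start site lies 13 bases from the GENCODE gene start for C1qb, 151 bases from it for C1qc and at the same base for C3.

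Motifs of 6 transcription factor families were searched on both strands of these windows. The PU.1 core GAGGAA, named for a transcription factor of myeloid cells, occurred 30 to 25 bases before the C1qb start site and, on the opposite strand, 193 to 188 bases before that of C1qc. The same letters occurred in 28.3% of all 32851 windows in the table. In the C3 window, a C/EBP motif (TTGCNNAA, present in 10.8% of all windows) lay 45 to 38 bases before the start. The C3ar1 window held an AP-1 motif (TGANTCA, 7.81% of all windows), and the C5ar1 window held none of those searched. The STAT motif TTCNNNGAA (8.30% of all windows), the interferon-stimulated response element (3.44%) and the NF-kB motif (0.411%) did not occur in the 5 windows. A match is only a stretch of letters and was not tested for binding.

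C1qa, the A chain, had 104, 135 and 96.3 FPKM in TAC replicates 1, 2 and 3, against 76.2, 53.6 and 64.3 FPKM in sham replicates 1, 2 and 3. C1qb, the B chain, had 102, 135 and 101 FPKM in TAC hearts, against 71.8, 51.8 and 59.2 FPKM in sham hearts. C1qc, the C chain, had 85.9, 119 and 80.6 FPKM in TAC hearts, against 58.8, 48.6 and 58.1 FPKM in sham hearts. For each chain TAC replicate 2 was the highest library and the lowest TAC library stood above the highest sham library. The counts behind these values ran from 2151 to 3443 per gene in TAC and from 1358 to 1611 in sham.

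On the log2 scale C1qb was 0.89 higher in TAC (SE 0.18, 95% interval 0.49 to 1.301, edgeR adjusted p = 0.0508). The difference of C1qa was 0.79 (SE 0.19, 95% interval 0.37 to 1.22, adjusted p = 0.0633), and that of C1qc 0.80 (SE 0.18, 95% interval 0.39 to 1.21, adjusted p = 0.0627). These 3 differences were all within 1 SE of each other. Without TAC replicate 1 all 3 chains passed (edgeR adjusted p of 0.0216 to 0.0393), in a fit that called 13.2% of all genes higher in TAC. DESeq2 also called all 3. Without any 1 sham library none of the 3 passed (edgeR adjusted p of 0.141 to 0.270), in fits that called only 4 to 7 of all genes higher in TAC.

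The proportions of the chains held nearly steady from heart to heart. C1qb stood at 0.977, 1.01 and 1.05 times the FPKM of C1qa in TAC replicates 1, 2 and 3, and at 0.943, 0.966 and 0.921 times in sham replicates 1, 2 and 3. C1qc stood at 0.825 to 0.888 times C1qa in TAC hearts and 0.772 to 0.907 times in sham hearts. The C1qb ratio did not overlap between the groups, although it differed by little, and the C1qc ratio did.

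Macrophages, a main source of C1q in tissues, were followed by 11 marker genes. All 11 had a positive log2 fold change, 2 of them (the scavenger receptor gene Cd68 and the mannose receptor gene Mrc1) rose in TAC, and none was at 0 in a library. Their summed FPKM was 377, 608 and 618 in TAC replicates 1, 2 and 3, against 371, 328 and 364 in sham replicates 1, 2 and 3. Lyz2, a lysozyme gene that neutrophils also express, led the sum at 246 to 432 FPKM in TAC and 231 to 257 FPKM in sham. Without it the other 10 markers summed to 131, 211 and 186 FPKM in TAC replicates 1, 2 and 3, against 114, 97.35 and 112 FPKM in sham replicates 1, 2 and 3. TAC replicate 1 lay above the sham range by both sums, and its summed C1q, at 292 FPKM, was above the sham range of 154 to 207 FPKM. In TAC replicates 2 and 3 the summed C1q was 389 and 278 FPKM. In RNA of whole hearts, more cells of a type and more RNA per cell cannot be told apart.

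C1q was also set against these markers within each library. The 3 chains together made 0.774, 0.641 and 0.451 times the summed FPKM of the 11 markers in TAC replicates 1, 2 and 3, against 0.558, 0.469 and 0.4995 times in sham replicates 1, 2 and 3, so the groups overlapped. Against 4 markers only, the growth factor receptor gene Csf1r, Adgre1 (which encodes F4/80), the Fc receptor gene Fcgr1 and the engulfment receptor gene Mertk, the ratio was 7.12, 5.58 and 4.58 in TAC and 4.28, 3.71 and 3.61 in sham. By that measure the groups did not overlap, although the sum of the 4 markers in TAC replicate 1, at 41.02 FPKM, was below the sham range of 41.5 to 50.2 FPKM. Csf1r led that sum, and at 25.6 FPKM in TAC replicate 1 it was below its sham range of 28.5 to 36.9 FPKM. In CPM, Csf1r in TAC replicate 1, at 101, lay within the sham range of 88.35 to 107. The low sum thus depended on the FPKM scale, and the ratio was not formed in CPM. The mean log2 difference of the ratio, TAC minus sham, was 0.26 with 11 markers and 0.55 with 4, and with 11 markers it was 0.08 without TAC replicate 1. Without Lyz2, an alternative chosen after seeing the data, the ratio was 2.23, 1.84 and 1.499 in TAC and 1.82, 1.58 and 1.62 in sham, which again overlapped, and the mean log2 difference was 0.13. The part of macrophage number in the C1q values was not tested.

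**Figure D2:**
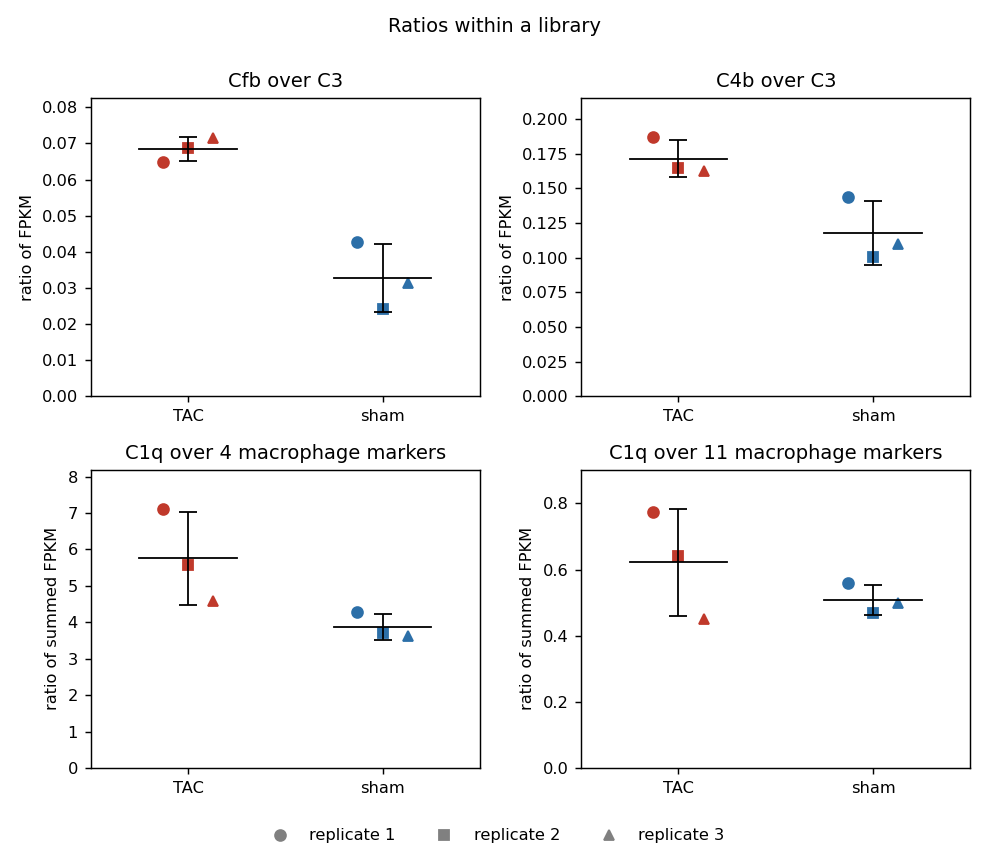
Ratios of FPKM within each library, TAC left of sham: Cfb over C3, C4b over C3, and the summed C1q chains over 4 or over 11 macrophage markers; points are libraries, the long line is the mean and the bar 1 SD (n = 3 each). Cfb over C3 is 0.0648 to 0.0715 in TAC and 0.0241 to 0.0428 in sham, and only C1q over 11 markers overlaps between groups.

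C4b, which encodes component C4, and Cfb, which encodes factor B, had larger fold changes than C1q but a wider spread. C4 is cut by the C1 complex and joins C2 in the C3-cleaving enzyme of the classical pathway, and factor B forms the catalytic part of the corresponding enzyme of the alternative pathway. Both genes lie on the minus strand of chromosome 17, C4b (ENSMUSG00000073418) at 34728380 to 34743882 and Cfb (ENSMUSG00000090231) at 34856374 to 34862518 in GRCm38. C4b has a near-identical copy, C4a, whose symbol was not found in the deposited table, so the reads of C4b may be uncertain. The deposited counts of C4b were whole in all libraries. Cfb lies 86 bases from C2 and is overlapped on the same strand by Gm20547. The Cfb count was fractional in 1 library, so some of its reads may have been divided between genes.

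C4b had 26.7, 69.15 and 26.6 FPKM in TAC replicates 1, 2 and 3, against 9.69, 9.41 and 20.2 FPKM in sham replicates 1, 2 and 3. TAC replicate 2 was well above the other TAC hearts, and sham replicate 3 well above the other sham hearts. The mean was 40.8 ± 24.6 FPKM in TAC and 13.1 ± 6.15 FPKM in sham (SD, n = 3 each). Its log2 fold change was 1.67 (95% interval 0.65 to 2.68, SE 0.44, edgeR adjusted p = 0.0786). Cfb had 9.23, 28.9 and 11.7 FPKM in TAC hearts, against 2.88, 2.26 and 5.75 FPKM in sham hearts. The same TAC and sham replicates were highest as for C4b, and the groups did not overlap. Cfb averaged 16.6 ± 10.7 FPKM in TAC and 3.63 ± 1.86 FPKM in sham (SD, n = 3 each). Its log2 fold change, the largest of the 9, was 2.17 (95% interval 1.05 to 3.30, SE 0.49, edgeR adjusted p = 0.0627). Without TAC replicate 2 the log2 fold changes were 1.02 for C4b (edgeR adjusted p = 0.185) and 1.46 for Cfb (adjusted p = 0.146).

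C3, the protein on which the pathways converge, was the most abundant of the 9 genes in TAC hearts and varied widely within both groups. It lies on the minus strand of chromosome 17 at 57203970 to 57228136 (ENSMUSG00000024164, GRCm38). C3 had 142, 419.9 and 163 FPKM in TAC replicates 1, 2 and 3, against 67.25, 93.95 and 183 FPKM in sham replicates 1, 2 and 3. Sham replicate 3 stood above TAC replicates 1 and 3, so the groups overlapped. The log2 fold change was 1.01 (SE 0.46, 95% interval -0.04 to 2.06, edgeR adjusted p = 0.208), an interval that includes 0. It was 0.37 without TAC replicate 2 (adjusted p = 0.585) and 1.46 without sham replicate 3 (adjusted p = 0.276). C3 passed in none of the alternatives run, DESeq2 included (adjusted p = 0.329).

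Relative to C3, the 2 convertase genes separated the groups with less spread than their own levels did. Cfb stood at 0.0648, 0.0688 and 0.0715 times the FPKM of C3 in TAC replicates 1, 2 and 3, against 0.0428, 0.0241 and 0.0314 times in sham replicates 1, 2 and 3. The mean ratio was 0.0684 ± 0.00338 in TAC and 0.0327 ± 0.00946 in sham (SD, n = 3 each). C4b stood at 0.187, 0.165 and 0.163 times C3 in TAC hearts, against 0.144, 0.1002 and 0.1101 times in sham hearts. Neither ratio overlapped between groups, and TAC replicate 2, far above the other TAC hearts for each gene alone, was not apart from them in either ratio. Both ratios were formed after the values were seen, so they were not tested.

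The receptors for the complement peptides had lower levels. C3ar1 (ENSMUSG00000040552, chromosome 6, 122847138 to 122856161, minus strand) encodes the receptor of C3a. It had 3.81, 8.05 and 8.06 FPKM in TAC replicates 1, 2 and 3, against 4.28, 2.78 and 4.04 FPKM in sham replicates 1, 2 and 3. TAC replicate 1 lay within the sham range and the other TAC hearts above it. The log2 fold change was 0.83 (SE 0.28, 95% interval 0.19 to 1.48, edgeR adjusted p = 0.116). Leaving out TAC replicate 1 gave 1.08 (adjusted p = 0.0118), in a fit that called 13.2% of all genes higher in TAC. With any other library left out C3ar1 did not pass (edgeR adjusted p of 0.208 to 0.353), in fits that called only 4 to 82 of all genes higher in TAC.

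C5ar1 (ENSMUSG00000049130, chromosome 7, 16246743 to 16259540, minus strand) encodes the receptor of C5a, which draws neutrophils and monocytes. It had 6.95, 13.02 and 18.5 FPKM in TAC replicates 1, 2 and 3, against 5.55, 4.19 and 3.73 FPKM in sham replicates 1, 2 and 3. No TAC heart fell within the sham range, and TAC replicate 1 was the nearest to it. The log2 fold change was 1.55 (SE 0.32, 95% interval 0.81 to 2.29, edgeR adjusted p = 0.0580), and DESeq2 gave an adjusted p = 1.66e-04. C5ar1 stood at 1.82, 1.62 and 2.30 times the FPKM of C3ar1 in TAC hearts, against 1.297, 1.51 and 0.923 times in sham hearts.

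The summed level of neutrophil markers, like C5ar1, was lowest in replicate 1 and highest in replicate 3 among TAC hearts, although S100a8, Retnlg and Ly6g were highest in replicate 2. Of 7 such markers, 6 were tested and 2, S100a8 and S100a9, rose. Their summed FPKM was 32.2, 177 and 192 in TAC replicates 1, 2 and 3, against 12.3, 3.60 and 6.51 in sham replicates 1, 2 and 3. Ly6g was at 0 in every sham library. Of 4 markers of recruited monocytes, 3 rose (Ccr2, Plac8 and Chil3). The 4 summed to 19.0, 40.5 and 92.6 FPKM in TAC replicates 1, 2 and 3, against 2.96 to 6.48 FPKM in sham. Chil3 alone had 66.7 FPKM in TAC replicate 3, against 3.95 and 9.23 FPKM in TAC replicates 1 and 2. The part of these cells in the C5ar1 and C3ar1 values was not tested.

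Serping1, which encodes the inhibitor that shuts off the C1 complex, was abundant and showed no clear difference. It lies on the minus strand of chromosome 2 at 84765387 to 84775444 (ENSMUSG00000023224, GRCm38). Serping1 had 133, 177 and 110.5 FPKM in TAC replicates 1, 2 and 3, against 111, 122 and 153 FPKM in sham replicates 1, 2 and 3. The groups overlapped, with TAC replicate 2 above the sham range, TAC replicate 3 just below it and TAC replicate 1 within it. The log2 fold change was 0.14 (SE 0.21, 95% interval -0.35 to 0.62, edgeR adjusted p = 0.711), and its sign turned without TAC replicate 2 (-0.10, adjusted p = 0.782).

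The order of the 9 genes by FPKM, a scale that divides by gene length, differed between the groups in a few places. In TAC hearts the order was C3, Serping1, C1qb, C1qa, C1qc, C4b, Cfb, C5ar1 and C3ar1, with means from 242 down to 6.64 FPKM. Among TAC neighbours only C1qc and C4b had ranges that did not overlap. In sham hearts it was Serping1, C3, C1qa, C1qb, C1qc, C4b, C5ar1, C3ar1 and Cfb, with means from 129 down to 3.63 FPKM. There the ranges separated between C1qc and C4b and between C4b and C5ar1. Cfb thus stood seventh in TAC hearts and last in sham hearts, with ranges that overlapped those of its neighbours in the order.

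The libraries differed within a group in a way that many of the 9 genes shared. TAC replicate 2 had the highest CPM of the 6 libraries for 8 of the 9 genes, as it had for 21.6% of all genes tested, and C5ar1 was the exception. Its FPKM over the mean of the other TAC hearts was 2.75 for C3, 2.60 for C4b and 2.77 for Cfb. The same quantity was 1.34 for C1qa, 1.36 for C3ar1 and 1.02 for C5ar1. Sham replicate 3 showed a like pattern over the other sham hearts, at 2.28 for C3, 2.12 for C4b and 2.24 for Cfb. For the C1q chains it was 0.957 to 1.08. The 9 genes together took 0.146%, 0.314% and 0.154% of all counts in TAC replicates 1, 2 and 3, against 0.0839%, 0.0945% and 0.151% in sham replicates 1, 2 and 3.

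B cell markers were also highest in TAC replicate 2, with a summed FPKM over 4 genes of 6.22, 22.3 and 5.24 in TAC replicates 1, 2 and 3, against 2.87, 4.01 and 5.18 in sham replicates 1, 2 and 3. None of the 4 passed the test or was at 0 in all libraries. The summed level of adipocyte markers, in turn, was highest in sham replicate 3. Their summed FPKM over 5 genes was 123, 125 and 9.53 in TAC replicates 1, 2 and 3, against 84.5, 48.9 and 225 in sham replicates 1, 2 and 3. The sum of 4 mesothelial markers was highest in the same library, although Wt1 was highest in TAC replicate 2. It was 19.5, 32.7 and 35.3 FPKM in TAC replicates 1, 2 and 3, against 15.0, 56.7 and 67.6 FPKM in sham replicates 1, 2 and 3. Markers of resting fibroblasts, of which none of 7 passed, summed to 795 to 1306 FPKM in TAC and 1704 to 1901 FPKM in sham. Most of that difference lay in Gsn, at 617, 498 and 291 FPKM in TAC replicates 1, 2 and 3, against 1038, 958 and 1106 FPKM in sham replicates 1, 2 and 3. The other abundant marker, Dcn, had 481, 614 and 337 FPKM in TAC and 558, 531 and 563 FPKM in sham, and the groups overlapped for it, Lum and Pdgfra. The part of these cells in the levels of C3, C4b and Cfb was not tested.

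**Figure D3:**
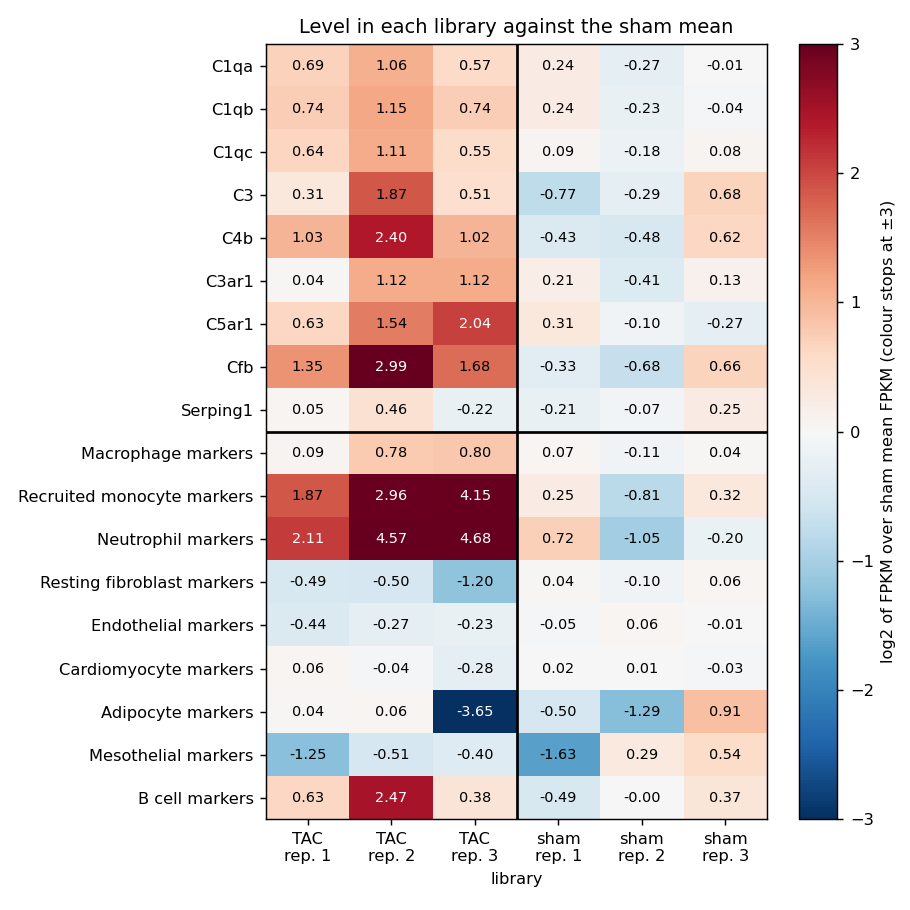
log2 of the FPKM in each library over the mean of the sham libraries, for the 9 complement genes and for the summed FPKM of each marker list except that of hepatocytes. TAC libraries are left of the vertical line and red is above the sham mean. C3, C4b and Cfb reach 1.87, 2.40 and 2.99 in TAC replicate 2, the TAC library in which each of the 3 genes is highest.

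Genes whose log2 CPM followed a member most closely over the 6 libraries were named as a description. The libraries share the group difference, and the correlations are the highest of a search over 10318 genes. For C1qa they were mt-Nd6, a mitochondrially encoded subunit of complex I, Msrb1, which encodes a methionine sulfoxide reductase, and Fam172a (Pearson's r of 0.991 to 0.993). C1qb, itself one of the 9, had 0.994. Tmem154, the progranulin gene Grn and the ubiquitin ligase gene Rnf145 were nearest to C3 (0.975 to 0.993). For C4b they were Ddit3, which encodes a transcription factor of the unfolded protein response, Zfp790 and Sfmbt1 (0.994 to 0.999). None of these passed the test between TAC and sham (edgeR adjusted p of 0.130 to 0.410).

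The rest of the complement system was covered by a list of 43 genes, of which 42 were in the table and 27 had enough counts to be tested. In it 2 genes rose in TAC, none fell and 25 did not pass, against 1.12% of all genes higher and 0.54% lower. The median log2 fold change was 0.30. Cfp, which encodes properdin, the stabiliser of the alternative-pathway convertase, had 11.5, 13.4 and 17.2 FPKM in TAC replicates 1, 2 and 3, against 8.17, 6.32 and 7.42 FPKM in sham replicates 1, 2 and 3. Its log2 level rose by 0.93 (95% interval 0.56 to 1.31, edgeR adjusted p = 0.0379). Vsig4, which encodes a receptor of tissue macrophages for C3 fragments, had 10.2, 15.1 and 11.8 FPKM in TAC hearts, against 5.23, 4.69 and 2.48 FPKM in sham hearts. Its log2 level rose by 1.57 (95% interval 0.91 to 2.24, edgeR adjusted p = 0.0436). Neither gene passed when TAC replicate 2, TAC replicate 3 or any of the sham libraries was left out (adjusted p of 0.063 to 0.212). Those fits called only 4 to 82 of all genes higher in TAC.

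Other genes of the alternative and terminal pathways were mixed. Cfd, the adipocyte-rich factor D that cuts factor B, had 108, 146 and 7.61 FPKM in TAC replicates 1, 2 and 3, against 121, 46.5 and 291 FPKM in sham replicates 1, 2 and 3 (log2 fold change -0.75, SE 0.93, edgeR adjusted p = 0.630). Both it and the summed adipocyte markers were lowest in TAC replicate 3 and highest in sham replicate 3. In the terminal pathway 3 of 7 genes were tested. C6, named after its values were seen, had 48, 122 and 24 counts in TAC replicates 1, 2 and 3, against 5, 0 and 1 counts in sham replicates 1, 2 and 3 (log2 fold change 4.85, 95% interval 2.60 to 7.09, edgeR adjusted p = 0.0553). C6 passed where TAC replicate 1 or TAC replicate 3 was left out, with edgeR adjusted p-values of 0.0207 and 0.0450. With all libraries it passed under DESeq2 (adjusted p = 1.48e-05) and limma-voom with library weights (adjusted p = 0.0117), and in no other fit. C8a and C8b were at 0 in every library.

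Among the regulators, 10 of 13 were tested and Vsig4 alone rose. Clu, clusterin, a secreted chaperone that binds the terminal complex, was the most abundant gene of the list at 533, 544 and 684 FPKM in TAC replicates 1, 2 and 3, against 351, 408 and 377 FPKM in sham replicates 1, 2 and 3 (log2 fold change 0.63, SE 0.14, edgeR adjusted p = 0.0630). Every TAC heart lay above every sham heart for Clu, as in 18.4% of all genes tested. The membrane regulators Cr1l (Crry) and Cd59a, which blocks the membrane attack complex, had log2 fold changes of 0.15 (95% interval -0.08 to 0.39) and 0.00 (95% interval -0.43 to 0.43). Other regulators had lower values in TAC, and the next 2 are named after their values were seen. Vtn, vitronectin, which keeps the terminal complex from inserting into membranes, had 14.8, 14.65 and 10.1 FPKM in TAC replicates 1, 2 and 3, against 22.2, 19.5 and 20.96 FPKM in sham replicates 1, 2 and 3 (log2 fold change -0.65, 95% interval -1.08 to -0.22, edgeR adjusted p = 0.0901). It passed as lower with DESeq2 (adjusted p = 0.0215), with limma-voom with library weights (adjusted p = 0.0371) and without TAC replicate 1 (edgeR adjusted p = 0.0348). Susd4, at 0.09 to 0.23 FPKM in TAC and 0.38 to 0.48 FPKM in sham, had a log2 fold change of -1.18 (95% interval -2.16 to -0.20, edgeR adjusted p = 0.137). Every TAC heart lay below every sham heart for both genes, as in 13.1% of all genes tested. Susd4 rested on only 6 to 16 counts in TAC libraries and 19 to 31 in sham libraries.

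C1ra and C1s1 encode the proteases of the C1 complex that act after C1q binds. C1ra had 21.1, 38.7 and 17.1 FPKM in TAC replicates 1, 2 and 3, against 14.4, 15.1 and 22.9 FPKM in sham replicates 1, 2 and 3. C1s1 had 31.7, 48.99 and 21.6 FPKM in TAC hearts, against 17.9, 19.2 and 30.3 FPKM in sham hearts. Both overlapped between groups, with log2 fold changes of 0.57 (edgeR adjusted p = 0.290) and 0.51 (adjusted p = 0.350), and like C3 both were highest in TAC replicate 2. Some of their counts were fractional, and each has a close copy (C1rb and C1s2), so their reads are uncertain. C2, the neighbour of Cfb, was also named after its values were seen. It had 3.47, 7.26 and 3.35 FPKM in TAC hearts, against 2.14, 6.13 and 9.45 FPKM in sham hearts (log2 fold change -0.40, SE 0.50, edgeR adjusted p = 0.639).

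Of the other receptors 5 of 6 were tested and none passed. Cd93, a membrane protein rich in endothelium, had a log2 fold change of -0.30 (95% interval -0.69 to 0.08, edgeR adjusted p = 0.287). The subunits of complement receptor 3, Itgam and Itgb2, named after their values were seen, had log2 fold changes of 1.93 (95% interval 0.91 to 2.96) and 1.59 (95% interval 0.86 to 2.31), with edgeR adjusted p-values of 0.0631 and 0.0523. Itgam had 4.70, 11.4 and 21.9 FPKM in TAC replicates 1, 2 and 3, against 3.64, 2.53 and 3.52 FPKM in sham replicates 1, 2 and 3. Like C5ar1 it was highest in TAC replicate 3. In the lectin pathway 3 of 8 genes were tested and none passed.

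**Figure D4:**
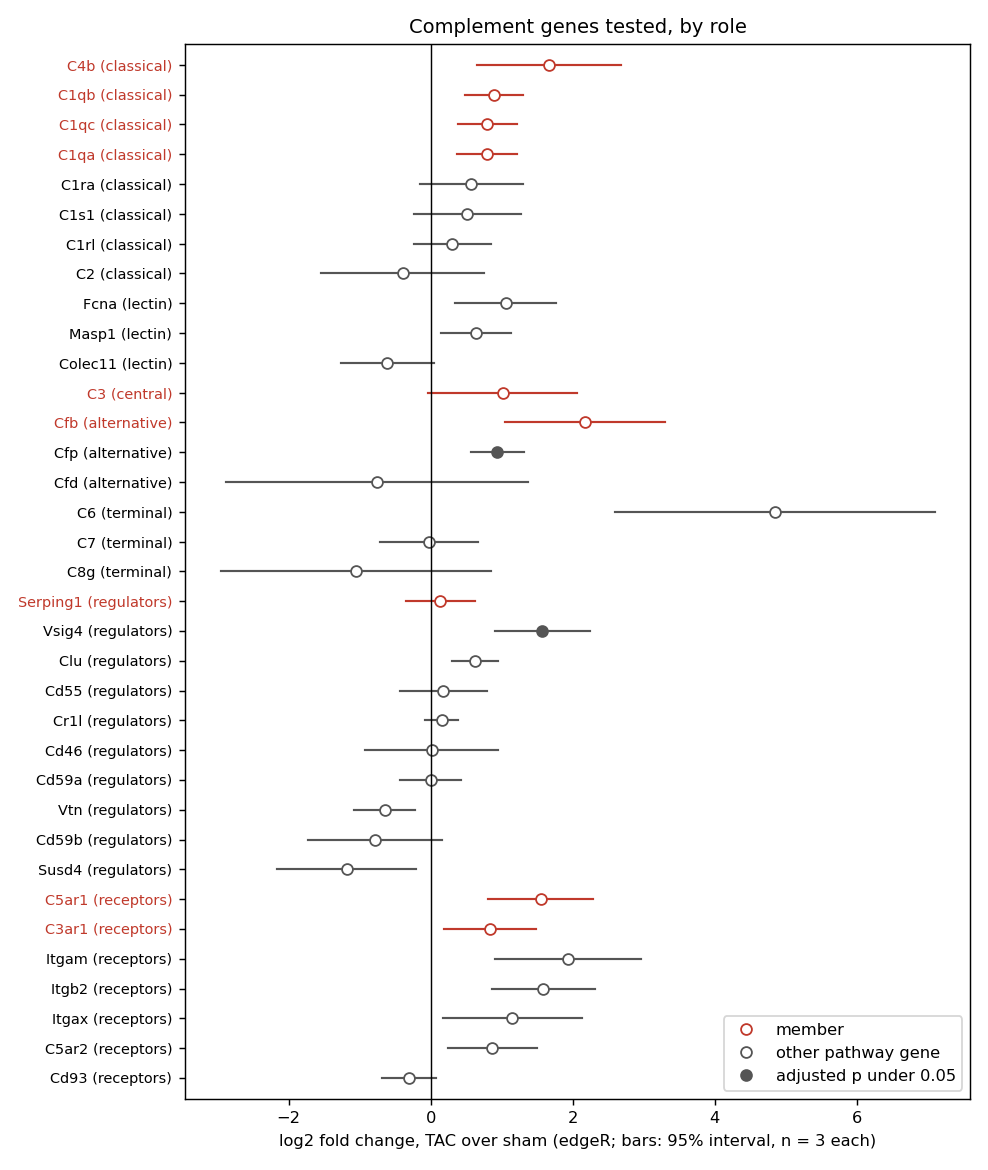
log2 fold change, TAC over sham, of the 9 complement genes (red) and 26 of the 27 other tested complement genes (grey), ordered by role; bars are 95% intervals from edgeR (n = 3 each) and filled points passed at an adjusted p under 0.05. Only Cfp and Vsig4 are filled, and all 9 red points lie right of 0.

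Whether these genes passed depended on the fit, while 8 of the 9 kept a positive log2 fold change in every alternative run. limma-voom with library weights called 7 of the 9 higher and 10.1% of all genes higher. It gave TAC replicates 1, 2 and 3 weights of 0.351, 0.9315 and 0.402, and the sham libraries weights of 1.44 to 3.04. The 7 called by DESeq2, by limma-voom with weights and without TAC replicate 1 were in each case all but C3 and Serping1. In the plain edgeR, voom and FPKM fits with all libraries the adjusted p of C1qb ran from 0.0495 to 0.0633, just beside the threshold. With TAC replicate 2 or any 1 sham library left out, none of the 9 passed, and without TAC replicate 3 C1qc passed alone (adjusted p = 0.0441). Those fits called few genes of any kind. Over all genes they called 20 higher without TAC replicate 2, 4 to 7 without a sham library and 82 without TAC replicate 3.

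**Figure D5:**
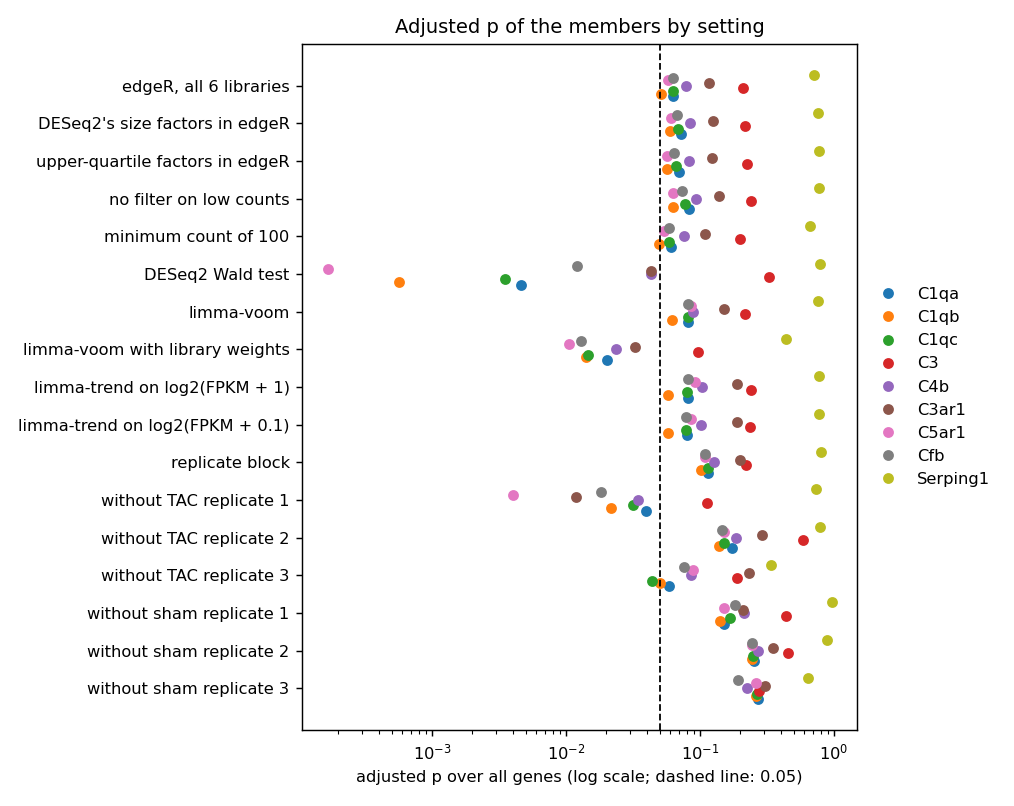
Adjusted p over all genes, on a log axis, of each of the 9 genes under each setting; the dashed line is 0.05. C3 and Serping1 stay right of the line in every setting, and the other 7 genes lie left of it with DESeq2, with library weights and without TAC replicate 1.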

How the data were processed

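Oligo(dT)-enriched heart RNA was made into libraries with a NEBNext Ultra kit for an Illumina Novaseq6000, per the labels' protocols, which do not state whether strand was kept. The deposited table holds, for each gene and library, estimated counts and FPKM (reads per length and depth), per the file headers. The submitters' processing notes list HISAT2, Bowtie2 (2.2.8), StringTie (1.3.1), DESeq2 and the build GRCm38, with no role for each. Of counts above 0, 88.7% to 89.7% were exactly whole. GENCODE M21 names, also GRCm38, matched 22255 of 22298 identifiers.

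Counts were rounded, filtered (filterByExpr, minimum count 10), scaled by TMM and tested for TAC against sham with edgeR 4.0.16 under R 4.3.3 (glmQLFit, glmQLFTest, two-sided, no covariate). The standard error, the log2 fold change over the square root of F, and its intervals are approximate. CPM use TMM-scaled library sizes. Libraries of a group differed beyond counting noise (chi-square of 11.8 to 102 per degree of freedom). Alternatives used DESeq2 1.42.0, limma 3.58.1, other factors, filters and FPKM pseudocounts of 1 and 0.1. On simulated counts the fit called 64% of 100 genes changed 2-fold and 99% of 100 genes changed 4-fold. A true change near 2-fold could thus be missed at this threshold. The simulation made no library stand apart from its group, so the share found in these data may differ.

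The 9 members and the lists were chosen with earlier results of these data known. Named by rule were the members, other complement genes that passed, the 8 most abundant of the rest, and the 3 genes most like C1qa, C3 and C4b (mean of at least 5 CPM). The values of 1 gene of the pathway list are not reported here.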

Additional observations from a re-analysis of the deposited data

How the results depend on the processing

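No member was called in the edgeR test, and 16 alternatives were run for each member's log2 fold change. Direction held in all of them for 8 members. Serping1 was the exception, which ran from -0.10 (without TAC replicate 2) to 0.30 (without TAC replicate 3) with 1 library left out. Members called higher numbered 1 with a minimum count of 100, 7 with DESeq2, 7 with limma-voom with library weights and 6 at an adjusted p under 0.10. Leaving out 1 library gave 0 to 7. No alternative called a member lower. Of the other complement genes, 2 higher in the main test, the same alternatives gave 8 (DESeq2), 8 (library weights), 7 (adjusted p under 0.10) and 1 in each FPKM fit, and 0 to 10 with 1 library left out. Lower calls among them, 0 in the main test, were 1 with DESeq2, 2 with library weights, 1 at an adjusted p under 0.10 and 0 to 2 with 1 library left out. Over all genes, with 153 higher and 74 lower, the counts were 1071 and 598 with DESeq2, 1379 and 715 with library weights, 1131 and 479 at an adjusted p under 0.10, and 4 to 1837 and 8 to 1392 with 1 library left out. Higher genes numbered 96 with limma-voom, 59 with FPKM plus 1 and 64 with FPKM plus 0.1. Fits with a library left out hold fewer samples, and the cause of these changes was not tested. There was no sign that replicate numbers pair the samples (correlations of deviations of 0.011, -0.111 and -0.024). With 3 samples in each group this cannot exclude a pairing. With the replicate block 0 other complement genes, and 48 higher and 26 lower genes in all, passed. The mean log2 ratio of C1q to macrophage markers, TAC minus sham, was 0.26 with 11 markers (0.08 to 0.47 with 1 library left out), 0.13 without Lyz2 and 0.55 with 4. For this ratio, the values without Lyz2 or a library were chosen after seeing the data. Depth was no limit for the members, with at least 141 counts in every library.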
